A study of Arabidopsis thaliana with 12 samples.

Results

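The chloroplast chromosome of Arabidopsis thaliana carries genes for core subunits of every photosynthetic complex of the thylakoid membrane, for the large subunit of Rubisco and for assembly factors of photosystem I. The 45 genes described here were taken by locus identifier from a deposited expression table of 32833 genes: 15 of photosystem II, 5 of photosystem I, 2 photosystem I assembly factors (ycf3 and ycf4), 5 of the cytochrome b6f complex, 6 of the ATP synthase, rbcL of Rubisco and 11 of the NDH complex. They were measured in leaves of 2 genotypes, the accession Col-0 and tpt-2, a mutant of the gene for the triose phosphate/phosphate translocator TPT. Plants of both genotypes were 21 d old and had grown in soil with 10 h of light per day before the night's end, when they were shifted to light of 500 µmol photons m-2 s-1. Sampling took place 9 h or 18 h after the shift, in 3 biological replicates per genotype and time, which gives 12 libraries. No library from before the shift or from an unshifted plant was analysed here, and tpt-2 was represented by 1 mutant line.

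Chloroplast genes are mostly arranged in clusters that are read into long shared transcripts and then cut and trimmed, and the products of their messages are assembled with subunits encoded in the nucleus. More than 1 kind of RNA polymerase works in the chloroplast, one encoded there and directed by nuclear sigma factors, the other imported as a single nuclear-encoded subunit. Chloroplast messages mostly lack the long poly(A) tails of nuclear messages. The libraries were prepared from RNA held on poly-T beads, so each value below describes the chloroplast RNA that came through that step and not the total amount in the leaf.

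Expression was given as FPKM, fragments per kilobase of gene and per 1e06 fragments (M). Depth was read from the spacing of the low FPKM values: Col-0 replicate 1 at 18 h was the deepest library, with 25.7 M fragments, and the other 11 had 12.3 to 14.3 M. It also gave the length used for each gene, and for 42 of the 45 genes that length was the coding length of the gene of that name in RefSeq (TAIR10.1). TPT itself was at 328 to 465 FPKM in Col-0 and at 2.52 to 3.85 FPKM in tpt-2. All 5 leaf markers were above the detection filter, with summed levels of 23706 to 33898 FPKM, and no flower or seed marker exceeded 5.62 FPKM in any library. Of 3 root markers 1 passed the filter, and their summed level was 148 to 350.4 FPKM over the 12 libraries, with overlapping ranges in the genotypes at each time. In bulk leaf RNA, fewer cells of a type and less RNA per cell cannot be told apart.

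One library stood apart. In tpt-2 replicate 3 at 9 h the 45 genes together held 1.24% of all fragments, against 0.229% and 0.222% in the other two tpt-2 libraries of that time. This library was the highest of all 12 for 44 of the 45 genes, all but ndhB. Its level over the mean of the other two had a median of 5.41 over those 44 genes, with a range of 2.15 to 8.84. At 9 h the summed level, the count of calls over the whole set, the medians of the complexes and the genes given library by library, ndhB apart, are therefore also described without it. The other 9 h differences of single genes and the counts of calls by complex include it. Left out, it lowered the log2 difference of each of the 44 genes tested, by 0.37 to 0.97.

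Chloroplast-encoded photosynthesis genes were higher in tpt-2 than in Col-0 at both times and in every complex. At 9 h Col-0 libraries had a summed FPKM of the 45 genes of 225, 276 and 205, and tpt-2 libraries of 2751, 2665 and 14784. At 18 h the sum was 183, 167 and 147 in Col-0 and 1936, 2788 and 1333 in tpt-2. The genotypes did not overlap at either time, and the lowest tpt-2 library was above every Col-0 library of both times. The difference in log2 summed FPKM was 4.35 at 9 h and 3.55 at 18 h (exact permutation test, two-sided, p = 0.1 at each time, which is the smallest p that 3 libraries against 3 allow). It was 3.53 at 9 h without tpt-2 replicate 3. As a share of all fragments, the 45 genes held 0.00938% to 0.0127% in Col-0 and 0.222% to 1.24% in tpt-2 at 9 h, and 0.00678% to 0.00816% and 0.109% to 0.218% at 18 h.

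**Figure D1:**
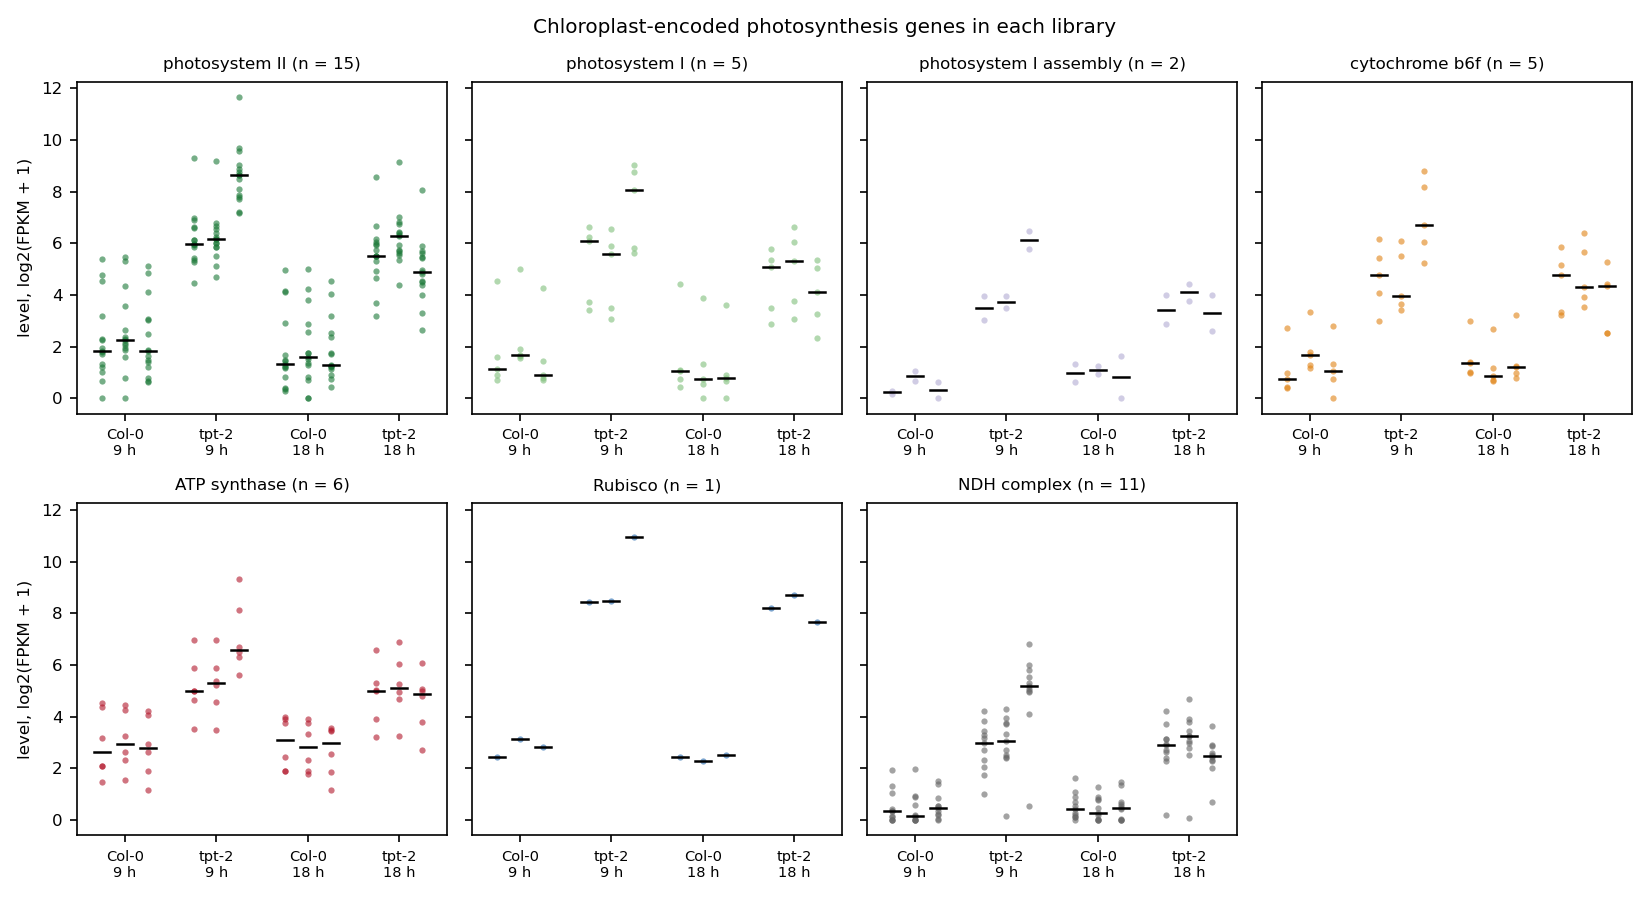
Level of each of the 45 genes in each of the 12 libraries, as log2(FPKM + 1), in 1 panel per complex; each point is a gene, each black bar the median of the complex in that library, and replicates 1 to 3 run from left to right within a group. In every panel the medians of the 6 tpt-2 libraries lie above those of the 6 Col-0 libraries, and tpt-2 replicate 3 at 9 h lies highest.

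Gene by gene, log2(FPKM + 1) was compared with limma over all genes whose mean reached 1 FPKM, with p-values adjusted by the Benjamini-Hochberg method over those 17585 genes and a gene called at an adjusted p under 0.05. Of the 45 genes, 44 entered the test, all but ndhB. At 9 h 43 of the 44 were called higher in tpt-2 and 0 lower in the limma fit (no member was lower at an unadjusted p under 0.05 either), where 13.6% of all genes tested were called higher and 8.72% lower. The median log2 difference of the 45 genes was 4.05, against 0.07 over all genes tested. It was 3.32 without tpt-2 replicate 3, with 43 genes still called. Of the 32 genes with a Col-0 mean of at least 1 FPKM at 9 h, 31 were called. The other 12 that were tested had a Col-0 mean under 1 FPKM at 9 h. All of these but ycf3 and petA, whose mean over all Col-0 libraries reached 1 FPKM, passed the filter only through tpt-2. Among the 32, psaB, psaI and psbH also passed the filter only through tpt-2, as their mean over all Col-0 libraries was under 1 FPKM. The calls of the genes that passed only through tpt-2 carry no separate weight. At 18 h 35 of 44 were called higher and 0 lower, where 2.0% of all genes were called higher and 0.881% lower, and the median log2 difference was 2.71 against 0.09. In that comparison 17 of the 26 genes with a Col-0 mean of at least 1 FPKM were called. Among the 17, petG passed the filter only through tpt-2. The 18 h count rested on few libraries: it was 22, 16 and 18 without Col-0 replicate 1, 2 and 3 of that time, and 18 without tpt-2 replicate 2. Without tpt-2 replicate 3 of 9 h, a library outside the comparison that enters the shared estimate of spread, it was 43.

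The levels of the 3 replicates of a group did not overlap between genotypes for all 45 genes at 9 h, where 23.9% of all genes tested were higher without overlap, and for 44 of 45 at 18 h, where 22.1% were. The exception at 18 h was psbM.

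Photosystem II, the complex that splits water, had the largest median difference of the complexes with several genes, at 5.11 on the log2 scale at 9 h (4.2 without tpt-2 replicate 3) and 4.11 at 18 h. Of its 15 genes 14 were called at 9 h, all but psbM, and 13 at 18 h, all but psbM and psbT. Among its genes with a Col-0 mean of at least 1 FPKM at that time, 13 of 14 were called at 9 h and 9 of 11 at 18 h. The 18 h call of psbK (limma, adjusted p = 0.0441) was lost when any 1 library of that time was left out. The gene psbA (ATCG00020) encodes D1, the reaction-centre protein that is damaged by light and replaced continually. It lies on the minus strand of the chloroplast chromosome at Pltd:383-1444 and was the highest of the 45 genes over the 12 libraries. In Col-0 psbA was at 8.03, 11.1 and 7.34 FPKM at 9 h and at 6.53, 6.40 and 4.87 FPKM at 18 h. The tpt-2 levels were 634, 588 and 3292 FPKM at 9 h, then 384, 562 and 271 FPKM at 18 h. Every tpt-2 library was at least an order of magnitude above every Col-0 library, and the values rest on 64 to 178 fragments per Col-0 library and 3693 to 45982 per tpt-2 library. The log2 differences in psbA, 6.79 ± 0.52 at 9 h and 5.82 ± 0.52 at 18 h (limma, SE, adjusted p = 1.34e-05 and 2.12e-04), were the largest of the 45 genes at each time. Without tpt-2 replicate 3 the 9 h difference of psbA was 5.98.

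The stretch upstream of psbA is shown because it holds a bacterial-type promoter pair, the hexamers recognised with a sigma factor by the chloroplast-encoded polymerase. TTGACA begins 115 bases and TATACT 91 bases before the start codon, with 18 bases between them (capitals mark both hexamers; RefSeq TAIR10.1, Pltd:1530-1559, minus strand).
psbA: TTGACAtggctatataagtcatgtTATACT
Within 300 bases upstream of the start codon, on either strand, TTGACA occurred in 6 of the 45 genes (13.3%) and in 15 of 85 chloroplast protein-coding genes (17.6%). TATACT occurred in 9 of 45 (20.0%) and 16 of 85 (18.8%). Both hexamers were thus about as frequent before these genes as before chloroplast genes in general, and a match is only a match of letters.

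The messages for the other large photosystem II proteins were higher too. Those of psbB and psbC, which encode the antenna proteins CP47 and CP43, rose by 5.46 and 5.11 at 9 h and by 4.49 and 3.70 at 18 h. The message of psbD, which encodes the second reaction-centre protein D2, rose by 4.23 at 9 h and 3.24 at 18 h. The coding sequences of psbD and psbC overlap by 53 bases on the same strand, so some fragments could belong to either. psbE and psbF encode the subunits of cytochrome b559 and lie in 1 cluster with psbL and psbJ. Their 9 h differences were 5.68 and 5.13, with 5.76 for psbL and 4.78 for psbJ. psbN rose by 5.01 at 9 h and 3.11 at 18 h. It had 1, 0 and 1 fragments in the Col-0 libraries at 9 h and 1, 0 and 2 at 18 h. The size of its differences therefore depends on the 1 FPKM added to each value. The 18 h call of psbN was lost in limma when any 1 Col-0 library of that time was left out. psbN lies on the strand opposite to the psbB cluster. How strand was used in counting is not given in the sources used here. Its reads and those of the cluster therefore cannot be told apart.

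Among the small photosystem II genes, the 4 genes psbI, psbM, psbL and psbF have coding sequences of almost the same length but differed in behaviour. Their complete coding sequences are shown to make plain how short the counted features are (RefSeq TAIR10.1, each 5′ to 3′ on its own strand, start and stop codons in capitals; psbI Pltd:7583-7693 plus strand, psbM Pltd:28707-28811 minus strand, psbL Pltd:63804-63920 minus strand, psbF Pltd:63942-64061 minus strand).
psbI: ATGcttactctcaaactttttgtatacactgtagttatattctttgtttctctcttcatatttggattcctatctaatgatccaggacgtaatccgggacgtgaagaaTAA
psbM: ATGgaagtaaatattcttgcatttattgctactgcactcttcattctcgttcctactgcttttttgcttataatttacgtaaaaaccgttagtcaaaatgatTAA
psbL: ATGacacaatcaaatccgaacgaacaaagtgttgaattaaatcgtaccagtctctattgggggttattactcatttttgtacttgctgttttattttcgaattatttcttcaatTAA
psbF: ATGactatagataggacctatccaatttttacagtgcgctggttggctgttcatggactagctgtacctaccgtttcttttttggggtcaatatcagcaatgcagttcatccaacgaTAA
The psbI (ATCG00080) message was at 41.6, 43.8 and 28.0 FPKM in Col-0 at 9 h and at 57.5, 70.6 and 219.9 FPKM in tpt-2. The psbM (ATCG00220) message was at 26.1, 39.3 and 34.4 FPKM in Col-0 and at 40.5, 57.3 and 148 FPKM in tpt-2. By contrast psbL was at 1.34, 2.08 and 0.617 FPKM in Col-0, which is 1 to 3 fragments a library, and at 69.4, 64.0 and 399.6 FPKM in tpt-2. For psbF the Col-0 values were 3.91, 2.70 and 1.81 FPKM and the tpt-2 values 62.4, 71.7 and 471 FPKM. In the first 2 tpt-2 libraries all 4 genes thus lay between 40.5 and 71.7 FPKM, while in Col-0 psbI and psbM were above 20 FPKM and psbL and psbF below 5. The genes psbT, psbJ and psbN are about as short, and their Col-0 means at 9 h were also below 5 FPKM, at 2.06, 4.59 and 0.380. At 18 h psbM was at 30.8, 30.9 and 22.3 FPKM in Col-0 and at 45, 46 and 27.4 FPKM in tpt-2, which overlap. Its log2 difference was 1.08 ± 0.38 at 9 h (limma, adjusted p = 0.0607) and 0.46 ± 0.38 at 18 h (adjusted p = 0.511), the smallest among the 44 genes tested at both times. psbI rose by 1.36 ± 0.39 at 9 h (adjusted p = 0.0278) and by 1.91 ± 0.39 at 18 h (adjusted p = 0.0275). At 9 h psbI no longer passed in limma when Col-0 replicate 2 (adjusted p = 0.0505) or replicate 3 (adjusted p = 0.082) was left out, with no filter on low values (0.0524) and in a fit of only the 6 libraries of that time (0.0864). At 18 h it did not pass in 7 of 22 alternatives (highest adjusted p 0.114 in limma), among them each with 1 Col-0 library or tpt-2 replicate 1 or 2 of that time left out, no filter on low values and the replicate block (0.0577). psbM was called without tpt-2 replicate 1 (limma, adjusted p = 0.0217). Without tpt-2 replicate 3 the 9 h differences of psbI and psbM were 0.77 and 0.54.

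Photosystem I passes electrons on to ferredoxin, and psaA and psaB encode the pair of proteins at its core. psaA (ATCG00350) had the highest mean level of the complex. It was at 1.18, 2.80 and 1.70 FPKM in Col-0 and at 98.4, 93.5 and 524 FPKM in tpt-2 after 9 h, and at 1.14, 0.459 and 0.896 FPKM against 54.3, 65.8 and 40.6 FPKM at 18 h. The genotypes were far apart at both times, with log2 differences of 5.92 ± 0.52 and 4.89 ± 0.52 (limma, adjusted p = 3.60e-05 and 6.69e-04), and 5.10 at 9 h without tpt-2 replicate 3. The median of the complex was 3.08 at 9 h, 2.33 without that library and 2.71 at 18 h. At 18 h 4 of its genes, psaA among them, had a Col-0 mean under 1 FPKM. psaB, next to it on the chromosome, rose by 5.80 and 4.12. The other 3 genes moved less: at 9 h psaC, which encodes the subunit with the terminal iron-sulphur clusters, rose by 3.08, psaI by 2.93 and psaJ by 2.03, and at 18 h psaJ (1.71, adjusted p = 0.109 in the limma fit) was the 1 gene of the complex that was not called. The assembly factor genes ycf3 and ycf4 rose by 4.14 and 3.82 at 9 h and by 2.74 and 2.55 at 18 h. The 18 h calls of psaC, psaI, ycf3 and ycf4 were each lost in limma when any 1 Col-0 library of that time was left out. ycf3 (ATCG00360) was at 0.205, 1.06 and 0.569 FPKM in Col-0 and at 14.7, 14.5 and 87.6 FPKM in tpt-2 after 9 h. Without tpt-2 replicate 3 the 9 h differences of ycf3 and ycf4 were 3.31 and 2.98. The length behind the ycf3 values was 381 bases, less than its RefSeq coding length of 507.

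The cytochrome b6f complex links the photosystems, and all 5 of its chloroplast genes rose at 9 h, with a median of 4.03 (3.35 without tpt-2 replicate 3). petB (ATCG00720), which encodes cytochrome b6, was the highest of them. It was at 0.362, 2.25 and 1.11 FPKM in Col-0 and at 70.9, 66.8 and 452 FPKM in tpt-2 after 9 h, and at 0.962, 1.25 and 0.748 FPKM against 57.8, 84.6 and 38.2 FPKM at 18 h. The log2 differences of petB were 5.95 ± 0.60 and 4.88 ± 0.60 (limma, adjusted p = 9.65e-05 and 0.00172), and 5.05 at 9 h without tpt-2 replicate 3; at 18 h its Col-0 mean was under 1 FPKM. petD, which encodes subunit IV, rose by 5.0 and 4.06, and petG by 4.03 and 2.27. petG, whose 9 h difference is the median of the complex, had at most 3 fragments in every Col-0 library at both times. The size of its differences therefore depends on the 1 FPKM added to each value. The 18 h call of petG was lost in limma when any 1 Col-0 library of that time was left out. For petA, which encodes cytochrome f, the 9 h difference was 3.11, and the 18 h difference of 1.93 was just short of the threshold in limma (adjusted p = 0.0513). The small subunit gene petL had the smallest differences, 2.08 at 9 h and 1.51 at 18 h (limma, adjusted p = 0.019 and 0.15). At 9 h petL did not pass with Col-0 replicate 1 left out (limma, adjusted p = 0.0546) or in a fit of only the 6 libraries of that time (0.0735), and psaJ did not pass with Col-0 replicate 1 (0.0509) or replicate 3 (0.0575) left out.

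The ATP synthase genes lie in 2 clusters on the chromosome, and their median difference was 3.0 at 9 h (2.30 without tpt-2 replicate 3) and 1.94 at 18 h. The cluster of atpI, atpH, atpF and atpA rose by 2.81, 4.63, 4.17 and 3.19 at 9 h. atpH (ATCG00140), which encodes the subunit of the membrane ring, was at 7.95, 8.56 and 6.75 FPKM in Col-0 and at 124, 125 and 637 FPKM in tpt-2 after 9 h, and at 14.7, 9.00 and 9.85 FPKM against 93.6, 117 and 66.1 FPKM at 18 h. Its log2 differences were 4.63 ± 0.50 and 2.93 ± 0.50 (limma, adjusted p = 1.35e-04 and 0.0115), and 3.85 at 9 h without tpt-2 replicate 3. The cluster of atpB and atpE, for the catalytic beta and the epsilon subunit, rose by 1.34 and 1.17 at 9 h. At 18 h the clusters overlapped, with atpI at 1.22 between atpB and atpE, and no test of the difference between them was run. atpB (ATCG00480) was at 19.6, 18.1 and 15.9 FPKM in Col-0 and at 31.1, 36.2 and 88.6 FPKM in tpt-2 after 9 h, and at 12.5, 14 and 10.8 FPKM against 30.8, 30.1 and 26.6 FPKM at 18 h. The groups did not overlap, and the 9 h difference was 1.34 ± 0.29 (limma, adjusted p = 0.00694), or 0.88 without tpt-2 replicate 3. At 18 h atpE was called (1.42, adjusted p = 0.0139 in limma) and atpB (1.17, adjusted p = 0.0513) and atpI (1.22, adjusted p = 0.144) were not. The coding sequences of atpB and atpE overlap by 4 bases.

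The gene rbcL (ATCG00490) encodes the large subunit of Rubisco, the enzyme that fixes CO2, and is the neighbour of atpB on the opposite strand. It was at 4.35, 7.76 and 6.17 FPKM in Col-0 and at 347, 353 and 1960.2 FPKM in tpt-2 after 9 h. At 18 h rbcL was at 4.44, 3.90 and 4.71 FPKM in Col-0 and at 296, 413 and 202 FPKM in tpt-2. The log2 differences of 6.49 ± 0.53 and 5.78 ± 0.53 (limma, adjusted p = 2.37e-05 and 2.36e-04) followed those of psbA in size at each time. Without tpt-2 replicate 3 the 9 h difference of rbcL was 5.66. rbcL was thus below atpB in every Col-0 library and above it in every tpt-2 library.

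The NDH complex carries electrons around photosystem I, and its 11 chloroplast genes were at low levels. The median level of the complex was 0.106 to 0.380 FPKM per Col-0 library over both times and 4.58 to 35.6 FPKM per tpt-2 library. All 10 genes tested were called at 9 h (median of the 11, 2.97, or 2.13 without tpt-2 replicate 3) and 8 at 18 h (median 2.24). Only 3 of the 10 had a Col-0 mean of at least 1 FPKM at 9 h. At 18 h 2 had, ndhJ and ndhC, and neither was called, so all 8 called genes had a Col-0 mean under 1 FPKM at that time. All of the 8 but ndhK, which was at 1.38 FPKM in Col-0 at 9 h, passed the filter only through tpt-2. ndhA (ATCG01100) had the highest mean of the complex: in Col-0 it was at 0.0722, 0.897 and 0.800 FPKM and in tpt-2 at 17.5, 18.4 and 109.8 FPKM at 9 h. At 18 h ndhA was at 0.324, 0.205 and 0.373 FPKM in Col-0 and at 17.7, 24.7 and 11.3 FPKM in tpt-2. Its log2 differences were 4.47 ± 0.55 and 3.80 ± 0.55 (limma, adjusted p = 3.48e-04 and 0.00518), and 3.62 at 9 h without tpt-2 replicate 3. As ndhA passed the filter only through tpt-2, these p-values carry no separate weight. In the cluster of ndhC, ndhK and ndhJ the 9 h differences were 2.78, 2.47 and 2.39, with ndhH of the other cluster at 2.55. At 18 h the adjusted p of ndhC and ndhJ was 0.059 and 0.15 in limma. ndhD was called at 18 h with an adjusted p of 0.0498 in limma, at the edge of the threshold.

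ndhB (ATCG00890) stood outside this pattern. It had 0 fragments in all 6 Col-0 libraries, and in tpt-2 it had 15, 2 and 7 fragments at 9 h and 2, 1 and 9 at 18 h. Its mean in tpt-2 at 9 h, 0.528 ± 0.450 FPKM (SD, n = 3), was at least 2.67-fold higher than the level that 3 fragments in each Col-0 library would give, 0.198 FPKM. That bound rests on replicate 1: without it the mean was 0.287 FPKM, at least 1.45-fold higher, and replicate 2 lay under that level. It is the 1 gene of the 45 that lies in the inverted repeat, in 2 copies, and how fragments with 2 equal places were counted is not given in the sources used here. The length behind its values was 1170 bases, against 1539 in RefSeq.

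Levels of several genes in Col-0 rest on few fragments. At 9 h 8 genes had at most 3 fragments in every Col-0 library: psbL, psbN, psaI, petG, ndhB, ndhE, ndhG and ndhI. At 18 h 9 had: psbZ, psbL, psbT, psbN, psaI, petG, ndhB, ndhG and ndhI. For these genes the log2 differences depend on the pseudocount of 1 FPKM. With a pseudocount of 0.1 FPKM the median difference of the 45 genes was 5.12 at 9 h and 4.17 at 18 h.

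**Figure D2:**
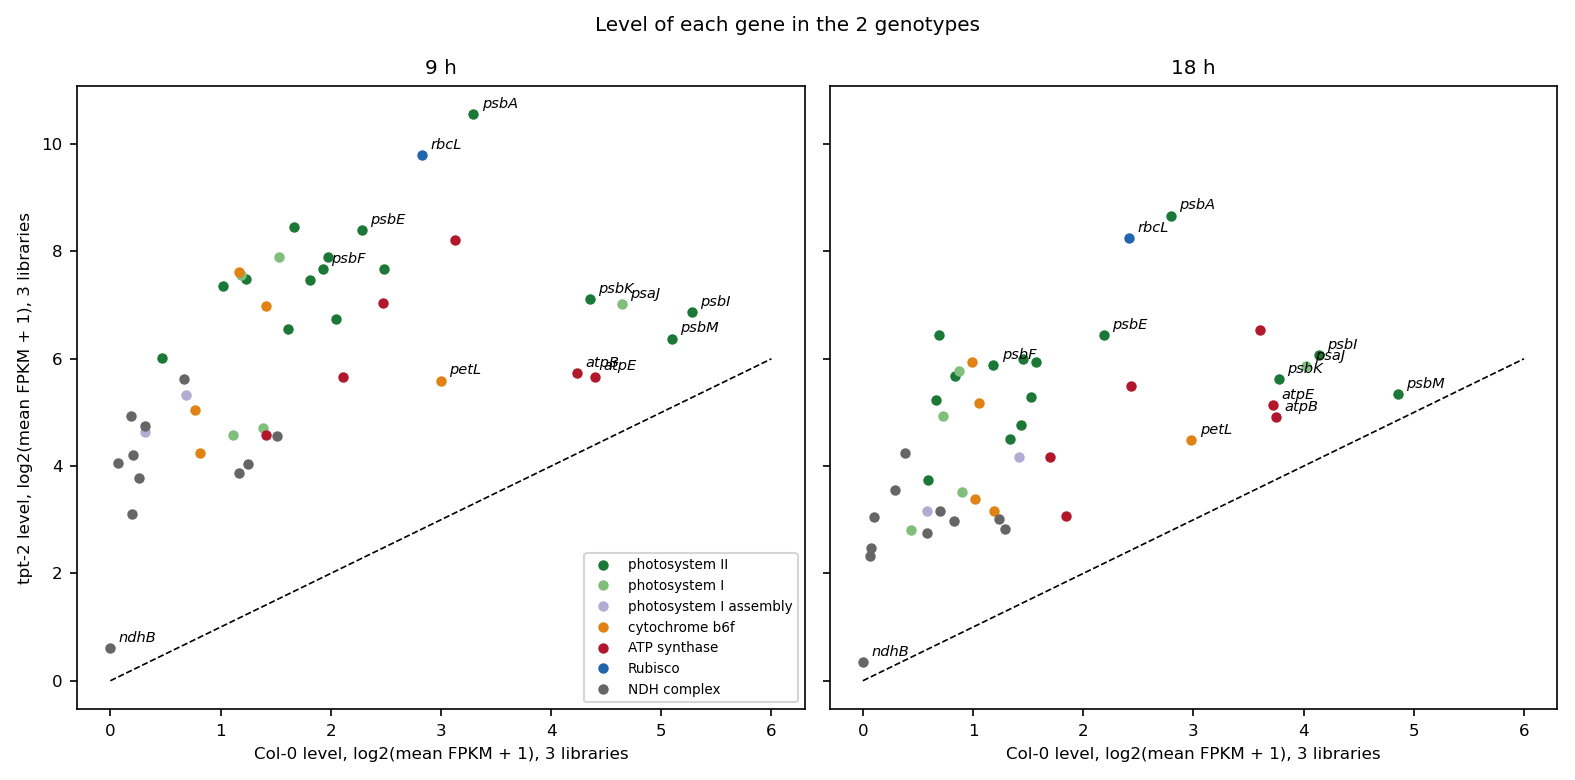
Mean level of each gene in tpt-2 against its mean level in Col-0 at 9 h (left) and 18 h (right), as log2(mean FPKM + 1) of 3 libraries per group, with the dashed line marking equal levels. All 45 points lie above the line at both times; psbI, psbM, psaJ, atpE, psbK and atpB lie farthest to the right at 9 h, of which psbI, psbM, atpB and atpE lie nearest the line, while psbA and rbcL lie highest.

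The order of the genes by level differed between the genotypes. In Col-0 at 9 h the highest levels belonged to psbI, psbM, psaJ, atpE, psbK and atpB, the only 6 genes with a mean above 15 FPKM, while the other 39 were below 10 FPKM. In tpt-2 at that time the highest were psbA, rbcL, psbZ and psbE. Across the 45 genes, Spearman's rho between 2 libraries was 0.751 to 0.917 within Col-0 (15 pairs of libraries), 0.873 to 0.975 within tpt-2 (15 pairs) and 0.373 to 0.803 between genotypes (36 pairs). These are descriptions: the genes share libraries, and counts in Col-0 are low. Over the 45 genes, the log2 difference at 9 h had a rho of -0.06 with the Col-0 level and 0.71 with the tpt-2 level. Both levels enter the difference, so a rho with either is set in part by construction. The 9 h difference had a rho of 0.15 with coding length and of 0.96 with the difference at 18 h.

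The make-up of the fragments of the 45 genes differed as well. In Col-0, atpB and atpE together held 27.8% to 37.8% of the fragments of the 45 genes, and in tpt-2 1.31% to 4.86%. psbA and rbcL together held 14.6% to 18.0% in Col-0 and 50.8% to 54.7% in tpt-2. psaA and psaB held 3.32% to 8.79% in Col-0 and 10.8% to 17.2% in tpt-2. None of these ranges overlap over the 6 libraries of each genotype, and shares of 1 total move against each other by construction. The library with the smallest total, Col-0 replicate 3 at 18 h with 840 fragments, gave psbA and rbcL 17.6% (95% Wilson interval 15.2% to 20.3%, counting error only). In tpt-2 at 9 h the psbA and rbcL share was 51.2%, 51.0% and 50.8% in replicates 1, 2 and 3, although replicate 3 held 163746 fragments of the 45 genes and the other two 29072 and 31761. The atpB and atpE share in these libraries was 2.58%, 3.17% and 1.31%, lowest in replicate 3.

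**Figure D3:**
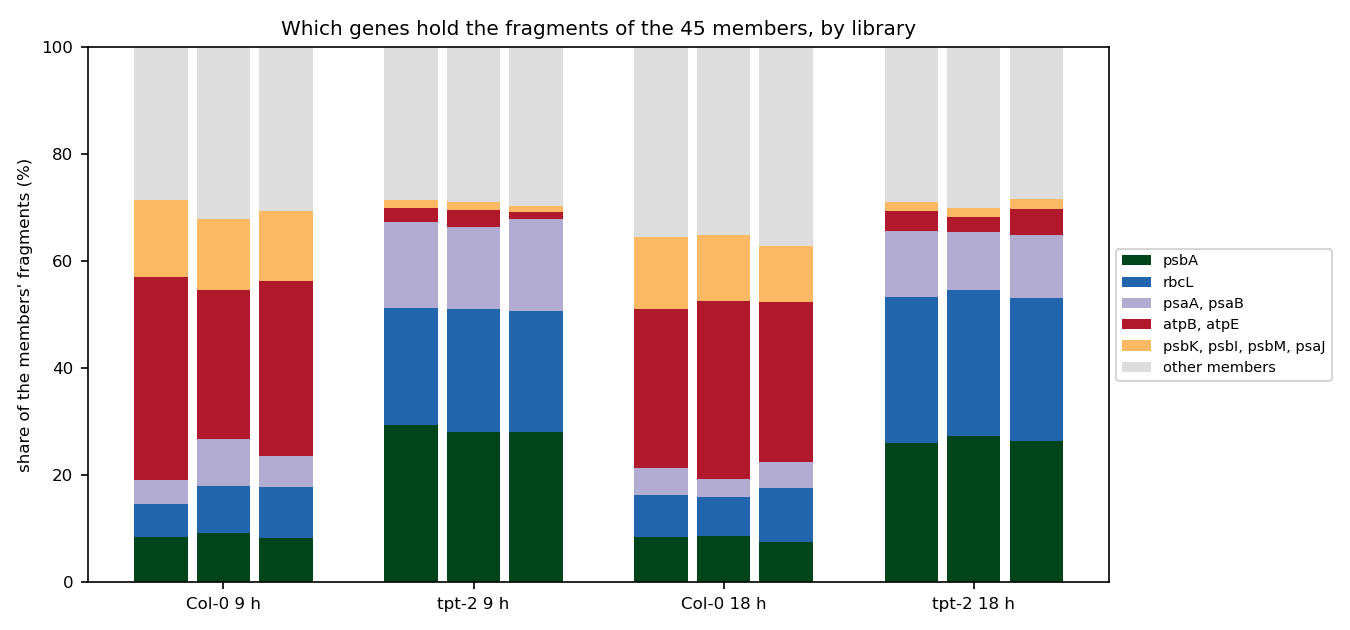
Share of the fragments of the 45 genes held by psbA, by rbcL, by psaA with psaB, by atpB with atpE, by psbK, psbI, psbM and psaJ together, and by all other members, in each of the 12 libraries (bars, replicates 1 to 3 from left to right in each group, each bar adding up to 100%). Shares vary within a genotype, with atpB and atpE at 27.8% to 37.8% in Col-0 and 1.31% to 4.86% in tpt-2, but these ranges do not overlap between genotypes.

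The 45 genes form 12 groups of at least 2 neighbours on the same strand, at most 600 bases apart and with no other annotated gene between them, which hold 35 of them. In 8 of the 12 groups the 9 h log2 differences lay within 1 of each other, where the whole set spanned 6.22. The closest were psaB and psaA, 0.11 apart, and atpE and atpB, 0.17 apart. The widest spans were 1.95 for petL and petG, 1.92 for the 7 genes from ndhD to ndhH, and 1.82 for the atpA group. Whether neighbours were more alike than other pairs was not tested.

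**Figure D4:**
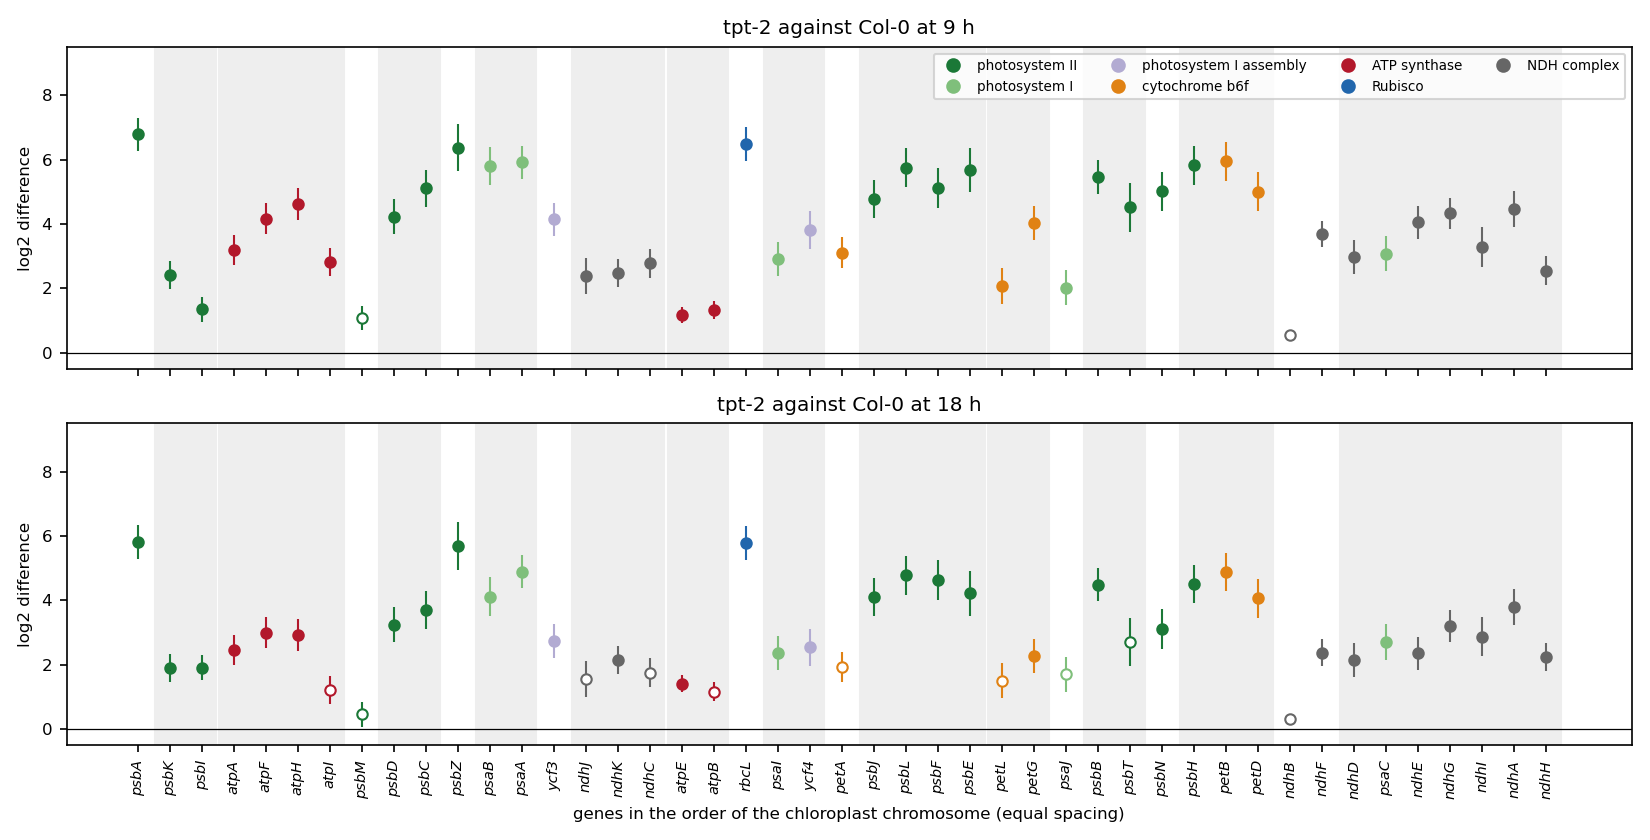
Log2 difference between tpt-2 and Col-0 (log2(FPKM + 1) scale, points with bars of 1 SE from limma) at 9 h (top) and 18 h (bottom) for the 45 genes in the order of the chloroplast chromosome, at equal spacing; filled points were called at an adjusted p under 0.05, open points were not, ndhB was not tested and has no bar, and grey bands mark groups of neighbours on 1 strand. The differences at 9 h run from 0.57 for ndhB to 6.79 for psbA, and the lowest tested values belong to psbM, atpE, atpB and psbI.

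Few of these genes were called between the times. In Col-0 0 of the 44 were called between 9 h and 18 h, where 28.7% of all genes tested were called in limma, and 2 were at an unadjusted p under 0.05; the median log2 difference was -0.25. In tpt-2 5 of the 44 were called lower at 18 h, a share near the 11.3% of all genes called lower. These were psbD, psbN, psaB, psaA and ndhF, lower by 1.60, 1.82, 2.09, 1.67 and 1.44 on the log2 scale. All 45 differences were negative in tpt-2, with a median of -1.18. Leaving out tpt-2 replicate 3 of 9 h gave a median of -0.43 and 3 calls. The calls of time in tpt-2 depended on the libraries kept, from 0 to 15. The genotype difference itself was not shown to change with time: 0 of 44 genes were called for the interaction of genotype and time in limma, where 4.78% of all genes were, and 6 were at an unadjusted p under 0.05. The median interaction was -0.97, and -0.16 without tpt-2 replicate 3 at 9 h. At 18 h the 3 tpt-2 libraries kept 1 order for most genes: replicate 2 was the highest for 42 of 45 and replicate 3 the lowest for 39.

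Nuclear genes for the same complexes had log2 differences between -0.31 and 0.57 at 9 h. Of the 47 tested, 11 were called higher (23.4%) and 1 lower, where 13.6% and 8.72% of all genes tested were. In the photosystem II list 5 of 13 genes were called higher and 1 lower, with a median log2 difference of 0.27. The largest rise was PSBR, from 2515 ± 260 to 3719 ± 96 FPKM (SD, n = 3; log2 difference 0.57, adjusted p = 0.00275 in limma), and the fall was PSBS, which dissipates excess light energy, from 2385 ± 17 to 1930 ± 122 FPKM (adjusted p = 0.0146 in limma). In the nuclear photosystem I list 2 of 12 genes were called and in the NDH list 4 of the 9 tested, all 6 of them higher. In limma 0 of 6 genes for the cytochrome b6f complex and its electron carriers, 0 of 3 ATP synthase genes and 0 of 4 Rubisco small subunit genes were called, with 2, 0 and 2 at an unadjusted p under 0.05. The medians of these lists lay between -0.09 and 0.19. Among the genes called, PSAN rose most in the photosystem I list, by 0.42, and PNSB1 in the NDH list, by 0.45. At 18 h 1 of the 47, PSAE1 of photosystem I, was called, higher by 0.43 (adjusted p = 0.0375 in limma), a share of 2.1% where 2.0% of all genes were called higher. Among 13 nuclear genes for chloroplast transcription and RNA turnover, 2 were called higher at 9 h, a share near the 13.6% of all genes: SIG3, a sigma factor, by 0.26 and RNE, an endoribonuclease, by 0.32. None of the 13 was called at 18 h in limma, where 4 were at an unadjusted p under 0.05.

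**Figure D5:**
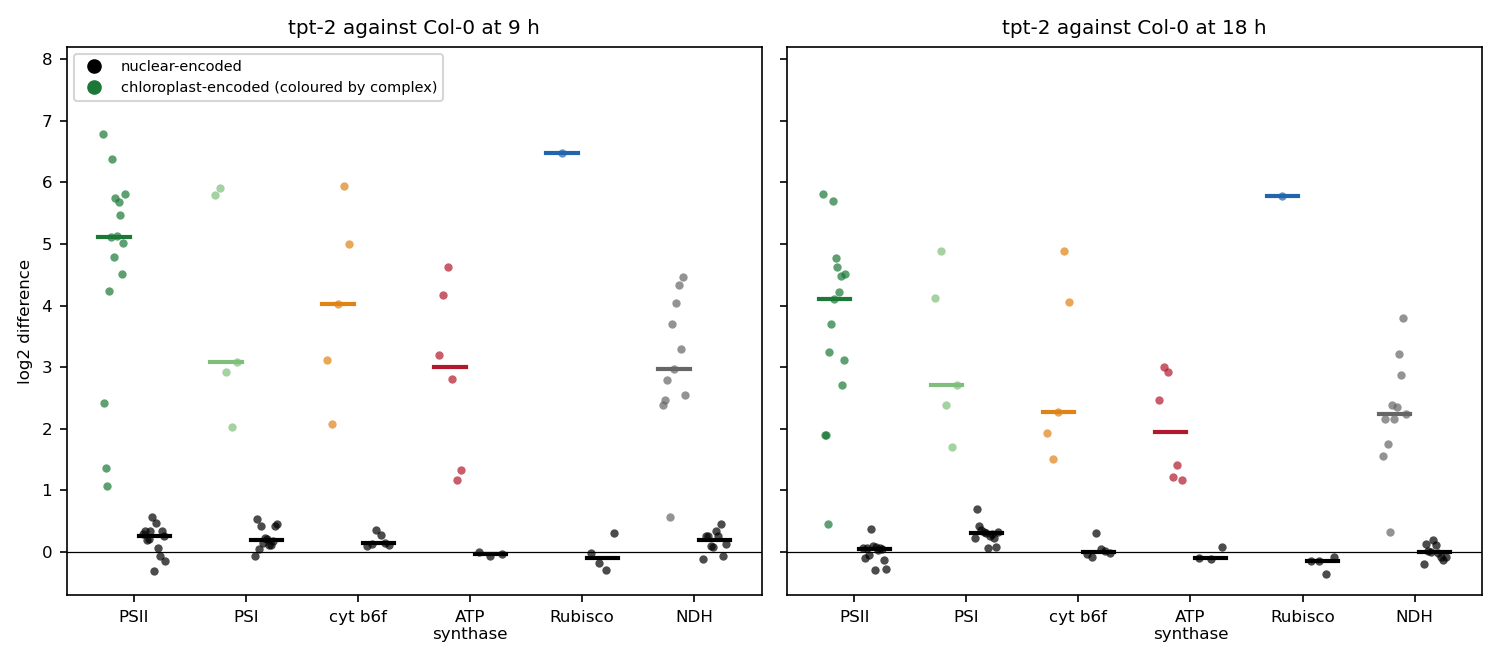
Log2 difference between tpt-2 and Col-0 at 9 h (left) and 18 h (right) for chloroplast-encoded genes (coloured by complex) and nuclear-encoded genes (black) of the same complexes; points are genes and bars are medians. The chloroplast-encoded medians at 9 h run from 2.97 to 6.49 and the nuclear ones from -0.09 to 0.27.

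The rise was not limited to photosynthesis genes. Of the 88 other chloroplast loci in the table, 59 were tested, of which 55 were called higher at 9 h and 23 at 18 h, where 13.6% and 2.0% of all genes were. The median log2 difference of all 88 was 2.04 at 9 h and 1.19 at 18 h. Their summed FPKM was 171 to 237 over the Col-0 libraries and 974 to 7744 over the tpt-2 libraries. The difference between the 45 genes and these loci was not tested. Of 12 mitochondrial loci tested, 2 were called higher at 9 h, near that share of all genes, and 4 at 18 h, where 2.0% of all genes were. The median difference over the 152 mitochondrial loci in the table was 0 at both times. As 140 of them were below the filter, that median says little about mitochondrial RNA. Their summed level was 26.8 to 55.8 FPKM in Col-0 and 52.9 to 69.7 FPKM in tpt-2 at 9 h, which overlap, and 23.6 to 25.8 FPKM against 64.4 to 80.7 FPKM at 18 h, which do not. The part of the wider shift in chloroplast RNA in the differences of the 45 genes was not tested.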

How the data were processed

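Leaf RNA of Col-0 and tpt-2 was sequenced in 12 libraries, 4 groups of 3 biological replicates. The authors deposited FPKM values, 1 per gene and library; all 12 value columns were matched to samples and 0 were unused. Per the labels' protocols, messenger RNA was selected with poly-T beads and the libraries are directional. The submitters' processing notes name CASAVA, HISAT2 2.0.5, featureCounts 1.5.0-p3, DESeq2 1.20.0 and the build TAIR10; strand and multiple-mapping settings are not given in the sources used here. The 45 loci, the gene lists and the tests were chosen with earlier results of these data known.

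FPKM values are not counts, so no count test was run. Depth was recovered from the steps of low values of 21307 nuclear genes with a single transcript, of which 98.9% to 99.3% per library came out as whole fragments within 0.05. The step of each chloroplast gene gave its length and, within 0.005, its fragments. The table pairs no chloroplast locus with a symbol: 32 of the 45 were tied to RefSeq genes (TAIR10.1) by a length that no other chloroplast gene has, all 32 in coordinate order, 10 shared a length and were placed by gene family and order, and 3 (ycf3, ndhB and ndhD) by order alone. Coordinates and sequences are those of RefSeq TAIR10.1; motifs were searched on both strands.

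Tests used log2(FPKM + 1) in limma 3.58.1 (R 4.3.3; lmFit and eBayes with a trend) on the 17585 genes whose mean reached 1 FPKM, with the 4 groups as 1 factor over all 12 libraries and Benjamini-Hochberg adjustment; p-values are two-sided. This scale understates differences of low genes. Summed FPKM was compared with an exact permutation test in scipy 1.17.1 (Python 3.11.15). The script was tested on simulated data. All 45 genes may be named; values per library are given for the highest gene of each complex and for the largest and smallest differences at each time, and from other lists the largest called rise and fall. psbI, psbL and psbF and the genes compared with them were added after their values were seen. A floor of 3 fragments was used for values at 0, and intervals cover counting error only. Same-numbered replicates were checked for pairing: 5 of 18 pairs had a correlation of deviations over 0.1 (range -0.34 to 0.14), so no block was used. Alternatives were another pseudocount, filters, scalings, sample weights, an untrended fit, a replicate block, only the 6 libraries compared and each library left out.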

Additional observations from a re-analysis of the deposited data

How the results depend on the processing

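The direction of all median differences held in all alternatives. The 9 h count of genes called (43) was 40 to 43 under the scalings, filters, weights and fits tried and 41 to 44 with 1 library left out; the 9 h median (4.05) was 5.12 with a pseudocount of 0.1 FPKM and 3.32 to 4.54 with 1 library left out. The 18 h count (35) was 25 with no filter on low values, 26 with the replicate block and 16 to 43 with 1 library left out, and the 18 h median (2.71) was 4.17 with a pseudocount of 0.1 and 2.57 to 2.83 with 1 library left out. The interaction count (0) was 0 to 1 and its median (-0.97) -1.36 to -0.16 with 1 library left out. For time in Col-0 the count (0) was 1 with a pseudocount of 0.1, 1 with a mean of at least 5 FPKM, 2 with arrayWeights, 6 in a fit of only the 6 libraries compared and 0 to 6 with 1 library left out, and the median -0.40 to -0.12. For time in tpt-2 the count (5) was 1 with a pseudocount of 0.1, 1 with no filter, 7 with a mean of at least 5 FPKM, 3 with median-ratio scaling, 7 with quantile normalization, 4 scaled to the nuclear sum, 2 with arrayWeights, 3 without the trend, 3 with the replicate block, 0 with only the 6 libraries and 0 to 15 with 1 library left out, and the median -1.57 to -0.43. The log2 difference in summed FPKM was 3.53 to 4.77 at 9 h and 3.28 to 3.82 at 18 h with 1 library left out, and 4.04 and 3.28 without psbA. The cause of these shifts was not tested. The replicate block left the 9 h count at 43; replicate numbers did not pair the libraries. Depth limits the low genes: 3 fragments in each Col-0 library at 9 h correspond to 2.08 FPKM in psbI, 2.20 FPKM in psbM and 2.41 FPKM in petL, which are among the shortest genes.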
